A study of Mus musculus with 17 samples.

Results

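Metallothioneins are small cysteine-rich proteins that bind zinc and copper, and 6 mouse genes that store, sense or carry zinc are described here in sorted bone marrow progenitors: the metallothioneins Mt1 and Mt2, the zinc-sensing transcription factor gene Mtf1, the zinc exporter gene Slc30a1 and the zinc importer genes Slc39a14 and Slc39a10. The 6 genes were taken by symbol from a count table of 35321 genes, and all 6 passed the filter on low counts that left 14920 genes for testing. They were chosen by a measured value, since Mt1 was the named gene with the greatest increase 24 h after lipopolysaccharide (LPS). Values for LPS at 24 h against the controls are therefore given as a description of the 6 genes, with no test. Other comparisons with the control libraries or the 24 h LPS libraries share libraries with that choice, so their tests are not independent of it.

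The libraries held polyA RNA from hematopoietic stem and progenitor cells (HSPCs) sorted from the bone marrow of wild-type C57BL/6J mice, whose age the labels do not give. There were 17 libraries in 5 groups. Mice of the control group (n = 5) had received phosphate buffered saline (PBS) intraperitoneally, and the labels place this group at day 0. The other groups (n = 3 each) had received LPS, a bacterial endotoxin sensed by Toll-like receptor 4, either alone or with an antibody that blocks the IL-10 receptor (anti-IL-10R), and marrow was taken 24 h or 72 h later. The amounts were 5 and 100, in micrograms per the series' design text and in milligrams per the sample labels, so the unit of the dose is not settled here. No group analysed here received the antibody without LPS, and the PBS libraries form a single group that serves as the control of both times. The labels do not say whether each library came from 1 mouse or from a pool, so p-values measure only the spread between these libraries, which may be technical.

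Library totals ranged from 10516722 to 16006001 counts. The 10 HSPC markers examined were detected in every group, with summed levels of 1680 to 2438 CPM (counts scaled to a common library total with TMM factors) in PBS libraries and 1062 to 1195 CPM 24 h after LPS. Markers of other blood cells were also present. Summed macrophage markers were at 364 to 2627 CPM in PBS libraries and 108 to 122 CPM 24 h after LPS. Summed neutrophil markers ranged from 157 to 2432 CPM and summed T and NK markers from 43.1 to 257 CPM over all 17 libraries. In bulk RNA of this kind, a change in the number of cells of a type and a change in RNA per cell cannot be told apart.

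Free zinc in the cytosol is kept low by the balance of import, export and storage. ZIP proteins, encoded by the Slc39 genes, carry zinc into the cytosol, ZnT proteins, encoded by the Slc30 genes, carry it out of the cell or into vesicles, and metallothioneins bind it. When zinc rises, MTF-1 binds metal response elements (MREs) in the promoters of Mt1, Mt2 and Slc30a1 and raises their transcription, and glucocorticoids, oxidative stress and IL-6 signalling through STAT3 are known to act on the same metallothionein genes.

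Mt1 (ENSMUSG00000031765.8) lies at chr8:94179082-94180327 on the plus strand of GRCm38, and Mt2 (ENSMUSG00000031762.7) at chr8:94172664-94173568 on the same strand, 5513 bases away. Their upstream sequences are shown because both carry the core that MTF-1 recognises. The bases printed are the 250 before the RefSeq start of each gene on GRCm38.p6 (chr8:94178839-94179088 for Mt1 and chr8:94172368-94172617 for Mt2, plus strand), and capitals mark each match to the MRE core on either strand, searched as TGCGCNC or TGCACNC.
Mt1: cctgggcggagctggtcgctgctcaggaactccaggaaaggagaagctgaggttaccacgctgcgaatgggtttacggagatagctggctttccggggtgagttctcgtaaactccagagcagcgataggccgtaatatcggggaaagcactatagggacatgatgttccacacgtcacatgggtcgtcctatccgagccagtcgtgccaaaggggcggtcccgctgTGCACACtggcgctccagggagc
Mt2: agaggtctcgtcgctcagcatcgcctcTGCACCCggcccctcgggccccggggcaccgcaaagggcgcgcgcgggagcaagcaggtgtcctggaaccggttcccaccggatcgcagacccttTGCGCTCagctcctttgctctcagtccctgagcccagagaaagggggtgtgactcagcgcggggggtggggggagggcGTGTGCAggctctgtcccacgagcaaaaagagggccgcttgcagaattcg
Mt1 held 1 match in these bases and Mt2 held 3. Further matches lie just past the RefSeq start, at bases 3 to 9 and 21 to 27 for Mt1 and 5 to 11 for Mt2. The counts before the start thus depend on the start used. In the RefSeq window of 300 bases, which runs on into the transcript, Mt1 held 3 matches and Mt2 held 4. Among 32851 windows of that length, 25.7% held at least 1 match, 1.969% held as many as Mt1 and 0.5175% as many as Mt2. The Slc30a1 window held 2, a number reached by 7.114% of windows, and the Mtf1 window and both Slc39a10 windows held none. The antioxidant response element core, searched as TGACNNNGC on both strands, was found once each in the Mt2 and Slc30a1 windows and in 12.39% of all windows. A match is a description of the letters and no measure of binding.

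Mt1, the first of the metallothioneins, was detected in every library, at 111 counts or more. Its level in PBS libraries 1 to 5 was 44.1, 24.5, 26.7, 26.3 and 7.79 CPM. At 24 h, the LPS libraries held 194, 60.5 and 69.7 CPM and the LPS and anti-IL-10R libraries 175, 139 and 88.4 CPM. All 6 libraries taken 24 h after LPS were thus above every PBS library. At 72 h, Mt1 stood at 29.5, 72.5 and 27.2 CPM after LPS alone and at 98.1, 85.0 and 100.3 CPM with the antibody. The 3 antibody libraries lay close together and above all LPS libraries of that time, whereas after LPS alone 2 of the 3 had values inside the PBS range.

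The log2 change of Mt1 from PBS was 2.06 (SE 0.46) 24 h after LPS, given without a test, and 1.34 without LPS replicate 1, the library with the highest level. With the antibody it rose by 2.37 on the log2 scale at 24 h (SE 0.46, adjusted p = 0.0050, edgeR's quasi-likelihood test with Benjamini-Hochberg adjustment over 14920 genes, as in all tests below) and by 1.87 at 72 h (SE 0.46, adjusted p = 0.0199). After LPS alone, the 72 h difference was 0.73 (95% interval -0.26 to 1.72, edgeR adjusted p = 0.558). The direct comparison of antibody and LPS libraries at 72 h gave 1.13 (SE 0.53, edgeR adjusted p = 0.152), with no overlap between the libraries. At 24 h that comparison gave 0.31 (95% interval -0.79 to 1.42). The antibody's effect at 72 h exceeded that at 24 h by 0.82 (SE 0.74, edgeR adjusted p = 0.536), so a difference between the times was not detectable. The 72 h call against PBS was lost without antibody replicate 1 (edgeR adjusted p = 0.0516) or replicate 3 (0.0602).

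**Figure D1:**
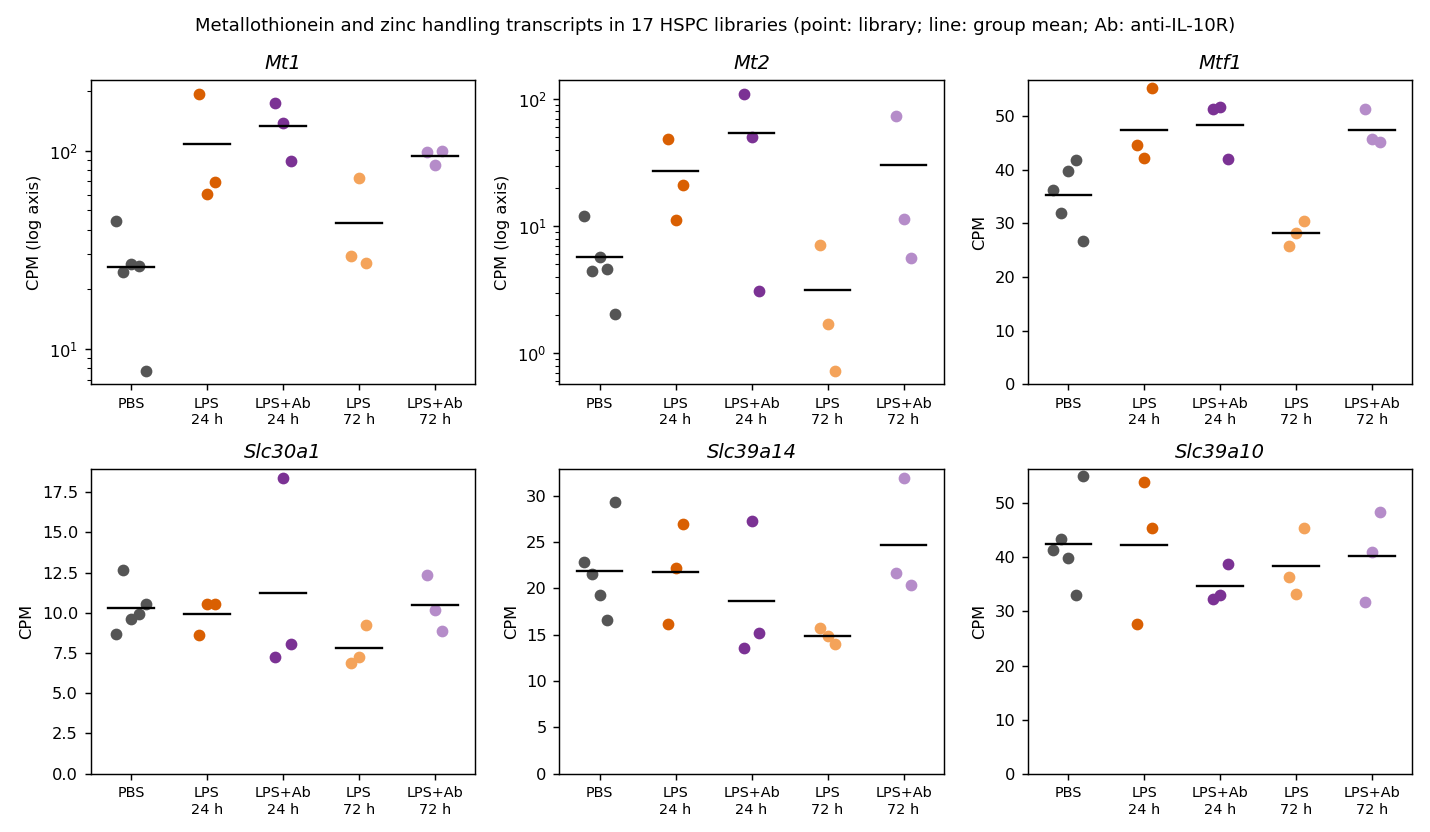
Level of each gene in every library, in CPM, with 1 point per library and a line at the group mean (n = 5 for PBS, n = 3 elsewhere); the Mt1 and Mt2 axes are logarithmic. Mt1 at 72 h sits between 85.0 and 100.3 CPM with the antibody and between 27.2 and 72.5 CPM without it, and Mt2 spreads from 3.09 to 111 CPM within the antibody group at 24 h.

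Mt2 had larger changes and a far larger spread. In PBS libraries 1 to 5 it was at 12, 4.41, 5.74, 4.57 and 2.04 CPM. After LPS alone it was at 48.9, 11.3 and 21.2 CPM at 24 h and at 7.06, 1.69 and 0.731 CPM at 72 h. With the antibody it was at 111, 50.0 and 3.09 CPM at 24 h and at 73.1, 11.5 and 5.59 CPM at 72 h. With the antibody, 1 of 3 libraries at 24 h and 2 of 3 at 72 h therefore lay inside the PBS range while the others were well above it, and all LPS libraries at 72 h lay below all LPS libraries at 24 h. The lowest values rest on few reads, 10 to 77 counts per LPS library at 72 h.

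The log2 change of Mt2 from PBS was 2.22 (SE 0.93) 24 h after LPS, as a description. It rose by 3.24 with the antibody at 24 h (SE 0.94, edgeR adjusted p = 0.0239), although the libraries overlapped. That call was lost in 4 of the 8 fits that left out a library, PBS replicate 2 or 5 (edgeR adjusted p = 0.0527 and 0.0547) or antibody replicate 1 or 2 (0.12 and 0.0652). At 72 h the difference from PBS was -0.90 after LPS (SE 1.06, edgeR adjusted p = 0.769) and 2.38 with the antibody (SE 0.93, edgeR adjusted p = 0.0943). Neither the antibody against LPS alone at 72 h (3.27, SE 1.18, edgeR adjusted p = 0.0723) nor LPS at 72 h against 24 h (-3.12, SE 1.18, edgeR adjusted p = 0.0552) passed the threshold. The latter passed with DESeq2's Wald test (adjusted p = 0.0213) and with limma voom with sample quality weights (0.037).

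Mt1 and Mt2 did not keep a constant proportion. The ratio of Mt1 to Mt2 counts ran from 3.29 to 5.75 in the PBS and 24 h LPS libraries, was as low as 1.34 in antibody replicate 1 at 72 h and as high as 42.9 in LPS replicate 2 at 72 h. Their coding sequences are 79.23% identical over 183 bases, and the longest run that their transcripts share is 20 bases. Mt2 has another overlap, since 73.47% of its exonic bases are also covered by Gm45774, an antisense gene on the opposite strand. Gm45774 counts were 0.75 to 0.875 of Mt2 counts in all 17 libraries, and whether the counting used strand is not given in the sources used here, so reads of the pair cannot be told apart and each value of Mt2 carries that limit. Per kilobase of exon, mean Mt1 in PBS was 20.8 CPM and mean Mt2 was 9.78 CPM. With the antibody at 24 h the per-kilobase means were 108 and 92.8 CPM, with SDs of 34.8 and 91.6 (n = 3). The exon length used for Mt1, 1246 bases, is its whole gene span, since its 3 annotated transcripts together leave no intron. That for Mt2, 588 bases, leaves introns out. The per-kilobase levels of the 2 genes are therefore not on a like basis. Of the other metallothioneins, Mt4 had no read in any library and Mt3 had 1 read in all, which puts both at or under the limit of 3 counts that a count of 0 allows in a library.

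The summed erythroid markers ranked the libraries of 3 groups in the same order as Mt2 did. All 10 erythroid markers, among them globin genes and Klf1, were detected in each group, and their summed level was 190 to 336 CPM in PBS and 270 to 608 CPM 24 h after LPS. Car1, which encodes a carbonic anhydrase, made up most of the sum in several libraries, with 430 of 544 CPM in LPS replicate 1 and 1111 of 1442 CPM in antibody replicate 1 at 24 h. Globin levels were lower 24 h after LPS than in PBS, with Hba-a1 at 7.14 to 15.8 against 20.3 to 65.1 CPM. The median log2 change of the 10 markers was -1.57 there, with 0 called higher and 1 lower, beside 37.6% of all genes called. In antibody replicates 1 to 3 at 24 h the sum was 1442, 312 and 20.8 CPM, against Mt2 levels of 111, 50.0 and 3.09 CPM. The same replicates at 72 h had sums of 798, 140 and 7.85 CPM, against Mt2 at 73.1, 11.5 and 5.59 CPM. The LPS libraries at 72 h had sums of 91.7, 23.3 and 5.85 CPM, against Mt2 at 7.06, 1.69 and 0.731 CPM. In these 3 groups the libraries thus fell in the same order by both measures, and in the same order by Hba-a1, which was not so for the sum in the PBS and 24 h LPS groups. That order, replicate 1 above 2 above 3, was also the order of Ly6a, an HSPC marker. With the antibody, Ly6a was at 530, 266 and 58.1 CPM at 24 h and at 632, 84.9 and 64.7 CPM at 72 h. After LPS alone at 72 h it was at 86.4, 59.2 and 36.3 CPM. The other HSPC markers did not all share that order. Kit shared it in the antibody groups. Cd48 ran the other way there, at 73.2, 128 and 180 CPM at 24 h and 65.8, 108 and 154 CPM at 72 h. The HSPC sum followed it in both 72 h groups, and not with the antibody at 24 h (1425, 1156 and 1356 CPM). How many of all genes fell in the order of replicate 1 above 2 above 3 was not counted. Over all 17 libraries, which share the group differences and the scaling, Pearson's r between log2 levels with the erythroid sum was 0.77 for Mt2 and 0.16 for Mt1. For Mt2 it was -0.79 with the summed stroma and endothelium markers and -0.49 with the HSPC markers. The part of erythroid RNA or of other cell types in the Mt2 result was not tested.

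**Figure D2:**
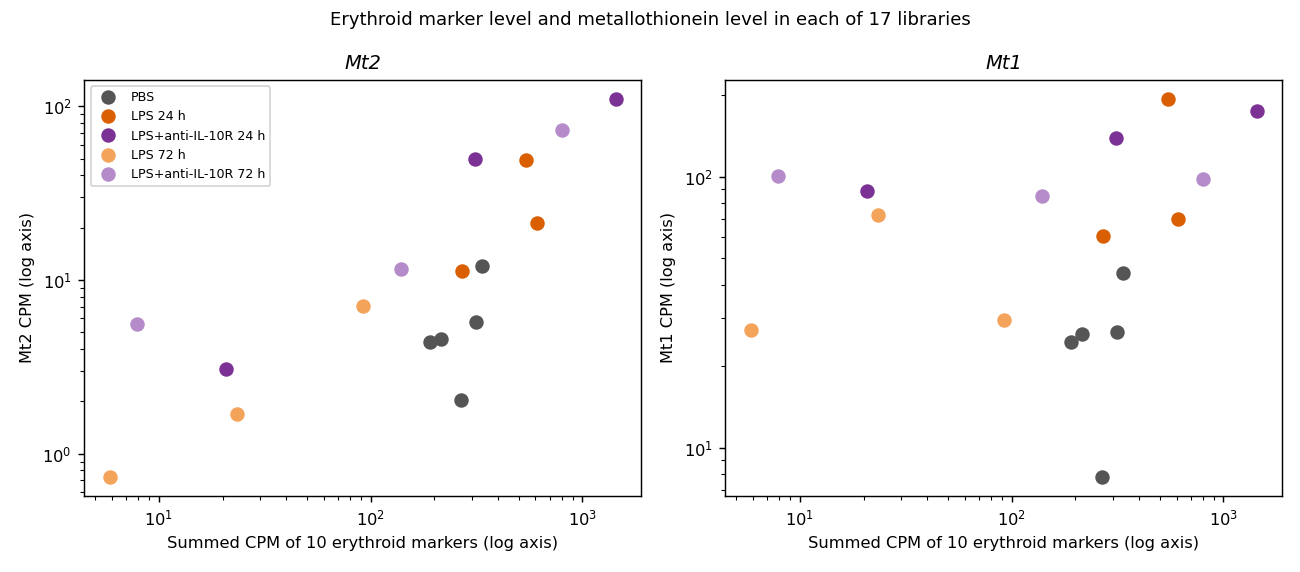
Mt2 (left) and Mt1 (right) in CPM against the summed CPM of 10 erythroid markers, with 1 point per library coloured by group and logarithmic axes. Mt2 climbs with the erythroid sum within the antibody groups, from 3.09 CPM at a sum of 20.8 to 111 CPM at a sum of 1442 at 24 h, while the antibody libraries at 72 h keep Mt1 between 85.0 and 100.3 CPM across sums of 7.85 to 798.

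Other marker sums moved with Mt1. Its r was -0.77 with the summed HSPC markers, -0.75 with the macrophage markers, -0.72 with the B lymphoid markers and -0.72 with the stroma and endothelium markers (17 libraries). The 10 macrophage markers, all detected in each group, summed to 133 to 208 CPM with the antibody at 24 h, 209 to 364 CPM after LPS at 72 h and 146 to 401 CPM with the antibody at 72 h. The 9 B lymphoid markers, also all detected, summed to 392 to 1345 CPM in PBS, 73.4 to 97.6 CPM after LPS at 24 h, 70.3 to 173 CPM with the antibody at 24 h, 149 to 405 CPM after LPS at 72 h and 59.8 to 391 CPM with the antibody at 72 h. At 72 h these 2 sums overlapped between the LPS and antibody libraries. The HSPC sums did not, at 1765 to 2299 CPM after LPS and 1196 to 1757 CPM with the antibody, and neither did the stroma and endothelium sums given beside Mtf1 below. The part of these cell types in the Mt1 result was not tested.

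Mtf1 (ENSMUSG00000028890.13, chr4:124802104-124849800, plus strand) encodes the zinc-sensing activator of both metallothionein genes. In PBS libraries 1 to 5 it was at 36.2, 32, 39.7, 41.7 and 26.7 CPM. At 24 h it was at 44.6, 42.1 and 55.2 CPM after LPS and at 51.3, 51.6 and 42.0 CPM with the antibody, above every PBS library. At 72 h it was at 25.7, 28.2 and 30.4 CPM after LPS and at 51.3, 45.7 and 45.2 CPM with the antibody. The 72 h LPS libraries were thus low and the 72 h antibody libraries as high as those of 24 h.

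Outside the comparison that chose the genes, Mtf1 was called most often of the 6. Its calls against PBS and against LPS at 24 h share libraries with that comparison, and its call between the 72 h groups does not. Mtf1 fell by 0.75 on the log2 scale from 24 h to 72 h of LPS (SE 0.16, edgeR adjusted p = 0.0032). At 72 h it was higher by 0.75 with the antibody than without (SE 0.16, edgeR adjusted p = 0.0080). The libraries did not overlap in either comparison. Both calls held in each of the 6 fits that left out a library, and the second had an adjusted p between 0.0111 and 0.048 there. The change with the antibody at 24 h against PBS was 0.45 (SE 0.14, edgeR adjusted p = 0.0325) and was lost with upper-quartile scaling (0.35, edgeR adjusted p = 0.0805) and without PBS replicate 2 or 5 or antibody replicate 1 or 2 (edgeR adjusted p from 0.0625 to 0.124). At 72 h the antibody group differed from PBS by 0.43 (SE 0.14, edgeR adjusted p = 0.0574) and the LPS group by -0.33 (SE 0.15, edgeR adjusted p = 0.418). LPS at 24 h gave 0.42 (SE 0.14), as a description. The antibody's effect at 72 h exceeded that at 24 h by 0.72 (SE 0.23, edgeR adjusted p = 0.0693), which DESeq2's Wald test placed past the threshold (adjusted p = 0.035).

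Over the 17 libraries, Mtf1 had an r of -0.79 with the summed HSPC markers, -0.61 with the B lymphoid markers and -0.85 with the stroma and endothelium markers. The HSPC sums of the 72 h LPS and antibody libraries, between which Mtf1 was called, did not overlap. The 6 stroma and endothelium markers summed to 187 to 207 CPM after LPS at 72 h and to 115 to 129 CPM with the antibody at 72 h, with Cxcl12 and Lepr at 0 in the former group. They summed to 136 to 177 CPM in PBS, to 69.8 to 101 CPM after LPS at 24 h with Lepr at 0, and to 91.4 to 129 CPM with the antibody at 24 h with Lepr and Col1a1 at 0. That sum was nearly all Pecam1, a gene of endothelial and blood cells, which held 204 of the 207 CPM in LPS replicate 1 at 72 h. Kdr, an endothelial receptor gene, was at 1.28, 0.676 and 0.658 CPM after LPS at 72 h and at 15.3, 1.40 and 0.212 CPM with the antibody, and the median log2 difference of the 4 markers tested was 1.87 between these groups, opposite to the sum. The part of these cell types in the Mtf1 result was not tested.

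Slc39a14 (ENSMUSG00000022094.15, chr14:70303469-70351425, minus strand) encodes ZIP14, an importer of zinc, iron and manganese at the cell surface. Its PBS libraries held 22.8, 21.6, 19.3, 16.5 and 29.3 CPM. After LPS it was at 16.1, 22.2 and 27.0 CPM at 24 h and at 15.8, 14.9 and 14.0 CPM at 72 h, where every library was below every PBS library and below every LPS library of 24 h. With the antibody it was at 13.6, 27.3 and 15.2 CPM at 24 h and at 21.6, 31.9 and 20.4 CPM at 72 h. It was past the threshold in no comparison tested. The 72 h contrasts without overlap had log2 differences of -0.56 for LPS against PBS (SE 0.25, edgeR adjusted p = 0.418), -0.55 for LPS at 72 h against 24 h (SE 0.28, edgeR adjusted p = 0.141) and 0.73 for antibody against LPS (SE 0.28, edgeR adjusted p = 0.0842). Limma voom with sample quality weights placed the last of these (adjusted p = 0.00889) and the difference between the antibody's effects at 72 h and 24 h (1.2, adjusted p = 0.0412) past the threshold, and edgeR gave 0.95 (SE 0.39, adjusted p = 0.148) for the latter.

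Slc30a1 (ENSMUSG00000037434.7, chr1:191906767-191913247, plus strand) encodes ZnT1, the zinc exporter of the plasma membrane. Its PBS libraries held 8.67, 12.7, 9.64, 9.90 and 10.5 CPM. After LPS it was at 8.62, 10.6 and 10.5 CPM at 24 h and at 6.87, 7.27 and 9.22 CPM at 72 h. With the antibody it was at 7.28, 18.4 and 8.05 CPM at 24 h and at 12.4, 10.2 and 8.84 CPM at 72 h. Apart from antibody replicate 2 at 24 h, the levels stayed within a narrow band, and the groups overlapped in every pair compared. The log2 difference from PBS with the antibody was 0.13 at 24 h (95% interval -0.41 to 0.67), where Mt1 had risen by 2.37, and 0.03 at 72 h (95% interval -0.52 to 0.57). Without antibody replicate 2 the 24 h value was -0.42.

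Slc39a10 (ENSMUSG00000025986.6, chr1:46807544-46892852, minus strand) encodes ZIP10, an importer at the cell surface. Its levels were 41.4, 43.4, 39.9, 32.9 and 55.0 CPM in PBS. They were 27.7, 54.0 and 45.4 CPM after LPS at 24 h and 36.3, 33.3 and 45.5 CPM at 72 h. With the antibody they were 32.2, 33.1 and 38.8 CPM at 24 h and 31.7, 40.9 and 48.4 CPM at 72 h. All groups compared overlapped. The widest difference from PBS was -0.29 with the antibody at 24 h (95% interval -0.73 to 0.15, edgeR adjusted p = 0.317).

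**Figure D3:**
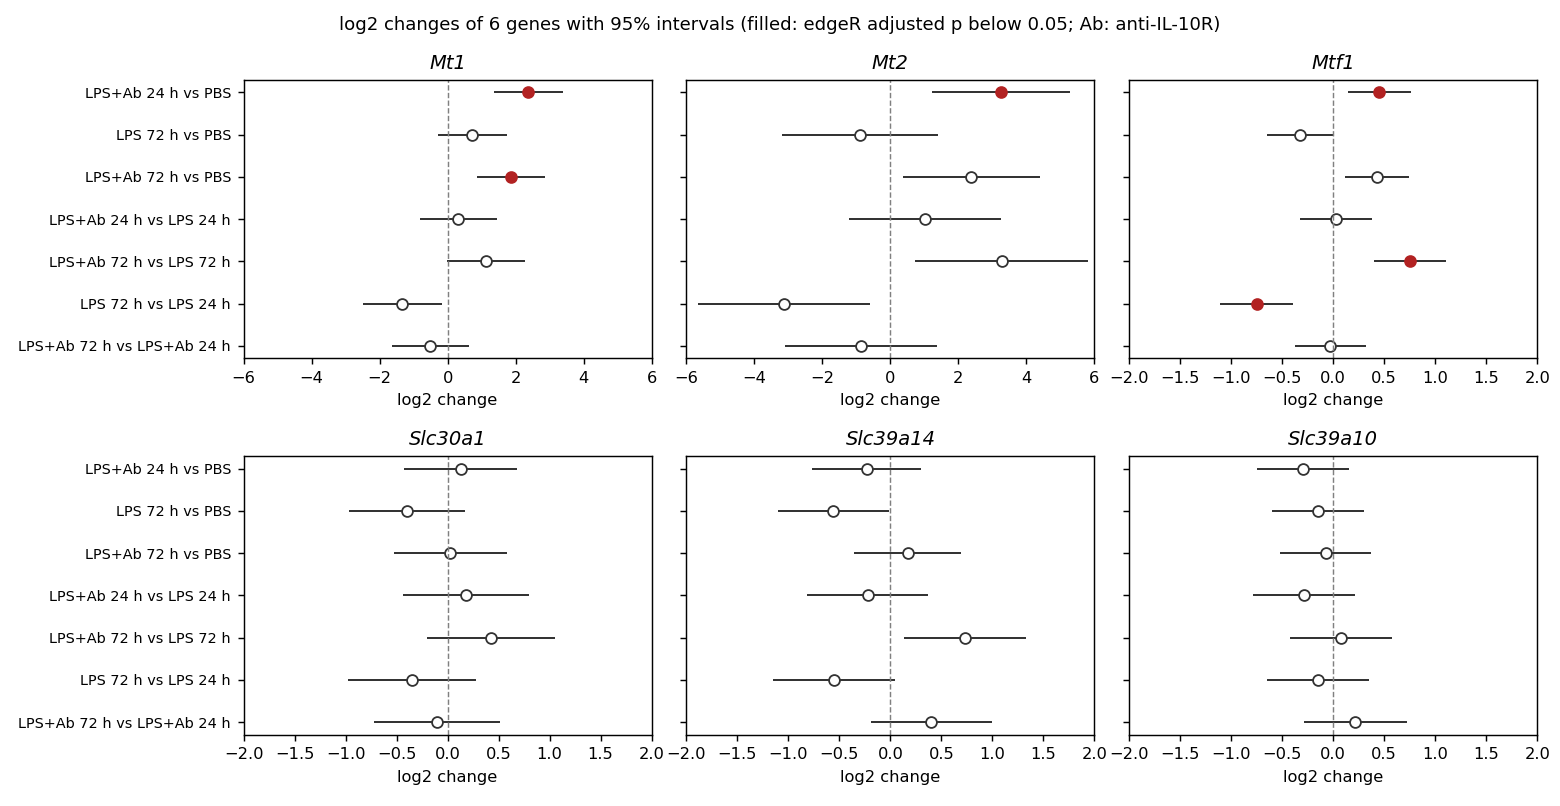
The log2 change of each gene with its 95% interval in the 7 pairwise comparisons other than the one that chose the genes. Those with PBS or 24 h LPS libraries share these libraries with the comparison that chose the genes. Filled points passed an edgeR adjusted p of 0.05. Mt1, Mt2 and Mtf1 have filled points, Mtf1 with 0.45, 0.75 and -0.75, while the 3 transporters have none and narrower intervals than Mt2.

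The groups can be ordered by mean level for each gene. Mt1 ran from the antibody at 24 h (134 CPM, SD 43.4) through LPS at 24 h (108) and the antibody at 72 h (94.5) to LPS at 72 h (43.1) and PBS (25.9), and among neighbours only the antibody and LPS groups of 72 h did not overlap. For Mtf1 the antibody groups and LPS at 24 h, at 47.3 to 48.3 CPM, overlapped with each other and stood clear of PBS (35.3 CPM), which overlapped with LPS at 72 h (28.1 CPM). For Mt2, Slc30a1, Slc39a14 and Slc39a10 every neighbour in the order overlapped. LPS at 72 h was the lowest group for Mt2, Mtf1, Slc30a1 and Slc39a14.

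The number of calls among the 6 genes can be read beside the share of all tested genes that were called. With the antibody at 24 h, 3 of 6 were called against PBS (Mt1, Mt2 and Mtf1, all higher), beside 24.2% of all tested genes. With the antibody at 72 h, 1 of 6 was called against PBS (Mt1), beside 13.2%, and 1 of 6 against LPS alone (Mtf1), beside 15.1%. From 24 h to 72 h of LPS, 1 of 6 was called (Mtf1), beside 31.1%. LPS at 72 h against PBS gave 0 of 6, beside 0.0201%. At an unadjusted p under 0.05, that comparison held 2 of the 6 (Mtf1 and Slc39a14, both lower), beside 11.4% of all genes. DESeq2 and limma voom called 0 of the 6 there, beside 178 and 2170 of 14920 genes. Antibody against LPS at 24 h and the antibody groups of 72 h against 24 h gave 0 of 6 each, beside 0% of all genes. At an unadjusted p under 0.05 each held 0 of the 6, beside 1.83% and 4.26% of all genes. DESeq2 and limma voom called 0 of the 6, and at most 2 of all genes. The difference between the antibody's effects gave 0 of 6 with edgeR, beside 6.35%. At an unadjusted p under 0.05 it gave 2 (Mtf1 and Slc39a14), beside 24.2% of all genes. It gave 1 with DESeq2 and 2 with limma voom, beside 1709 and 1585 of 14920 genes. For LPS at 24 h against PBS, the comparison behind the choice, 2 of 6 were past the threshold (Mt1 and Mtf1), beside 37.6%, and nothing is read from that count. Comparisons that share PBS or LPS libraries are not independent of each other. Those with PBS or 24 h LPS libraries are also not independent of the choice of genes.

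The libraries of 2 groups were also compared for complete separation. With the antibody at 24 h, 2 of the 6 genes were separated from PBS (Mt1 and Mtf1), beside 31% of all tested genes. At 72 h, 2 of 6 were separated from PBS with the antibody (the same 2 genes), beside 26.9%, and 1 of 6 after LPS (Slc39a14), beside 12%. Antibody and LPS libraries of 72 h were separated for 3 of 6 (Mt1, Mtf1 and Slc39a14), beside 33.2%, and LPS libraries of 72 h and 24 h for 3 of 6 (Mt2, Mtf1 and Slc39a14), beside 45.4%. For LPS at 24 h against PBS it was 2 of 6, beside 42.8%, from which nothing is read. At 72 h the Slc39a14 libraries of the LPS group were thus apart from those of 3 other groups compared with them.

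Among themselves, the genes formed no single pattern across the 17 libraries. Pearson's r of log2 CPM was 0.69 for Mt1 and Mt2, 0.72 for Mt1 and Mtf1 and 0.74 for Mt2 and Mtf1. It was 0.65 for Slc30a1 and Slc39a14, -0.01 for Mt1 and Slc30a1 and -0.56 for Mt1 and Slc39a10. These values describe libraries that share group differences and scaling. The genes closest to Mt1, among tested genes of at least median level, were Ctsz (r 0.96), Vapa (0.94), Dync1li1 (0.94), Syngr2 (0.94) and Bak1 (0.93). The closest to Mt2 were Oas1a (0.95), Minpp1 (0.92) and Rmdn3 (0.92), and to Mtf1 Aggf1 (0.94), L3mbtl2 (0.94) and Smg8 (0.93). The transporters had Lars2, Mdn1 and Hdac4 (0.75 to 0.77) beside Slc30a1, Smo, Nlgn2 and Hook1 (0.81 to 0.84) beside Slc39a14, and Zfp638, Pds5b and Ipo9 (0.84 to 0.88) beside Slc39a10.

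The remaining zinc transporters were followed in the same comparisons. Of 21 other Slc30 and Slc39 genes, 15 passed the count filter. At 24 h of LPS, 5 were higher than in PBS and none lower with TMM scaling, beside 37.6% of all tested genes called, with a median log2 change of 0.11 over the 15 against -0.03 over all genes, while upper-quartile scaling gave 2 higher and 1 lower. The 5 were Slc30a2 (1.48, SE 0.54), Slc39a7 (0.67, SE 0.19), Slc30a6 (0.65, SE 0.15), Slc39a8 (0.48, SE 0.17) and Slc30a5 (0.38, SE 0.13), with edgeR adjusted p from 0.00426 to 0.0424. ZIP7, the product of Slc39a7, releases zinc from the endoplasmic reticulum, ZIP8, that of Slc39a8, brings it in at the cell surface, and ZnT5 and ZnT6 load the early secretory pathway as a heterodimer. Slc30a2 was scarce, with 5 to 8 counts per PBS library and 11 to 19 per LPS library. Slc30a6 was past the threshold in all 17 alternatives run for this comparison, while Slc30a2 lost it in 10, Slc30a5 in 8, Slc39a8 in 5 and Slc39a7 in 3. Of the 8 fits that left out a library, Slc30a2 lost its call in 6 (edgeR adjusted p up to 0.176), all but those without PBS replicate 2 or LPS replicate 2, and Slc30a5 in 5 (up to 0.0735), those without PBS replicate 2 or 5 or any LPS library. Slc39a8 lost it in 4 (up to 0.122), those without PBS replicate 1 or 2 or LPS replicate 2 or 3, and Slc39a7 without LPS replicate 1 (0.122). With a replicate block, 3 were called, and Slc30a2 (edgeR adjusted p = 0.0654) and Slc30a5 (0.0505) were not.

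**Figure D4:**
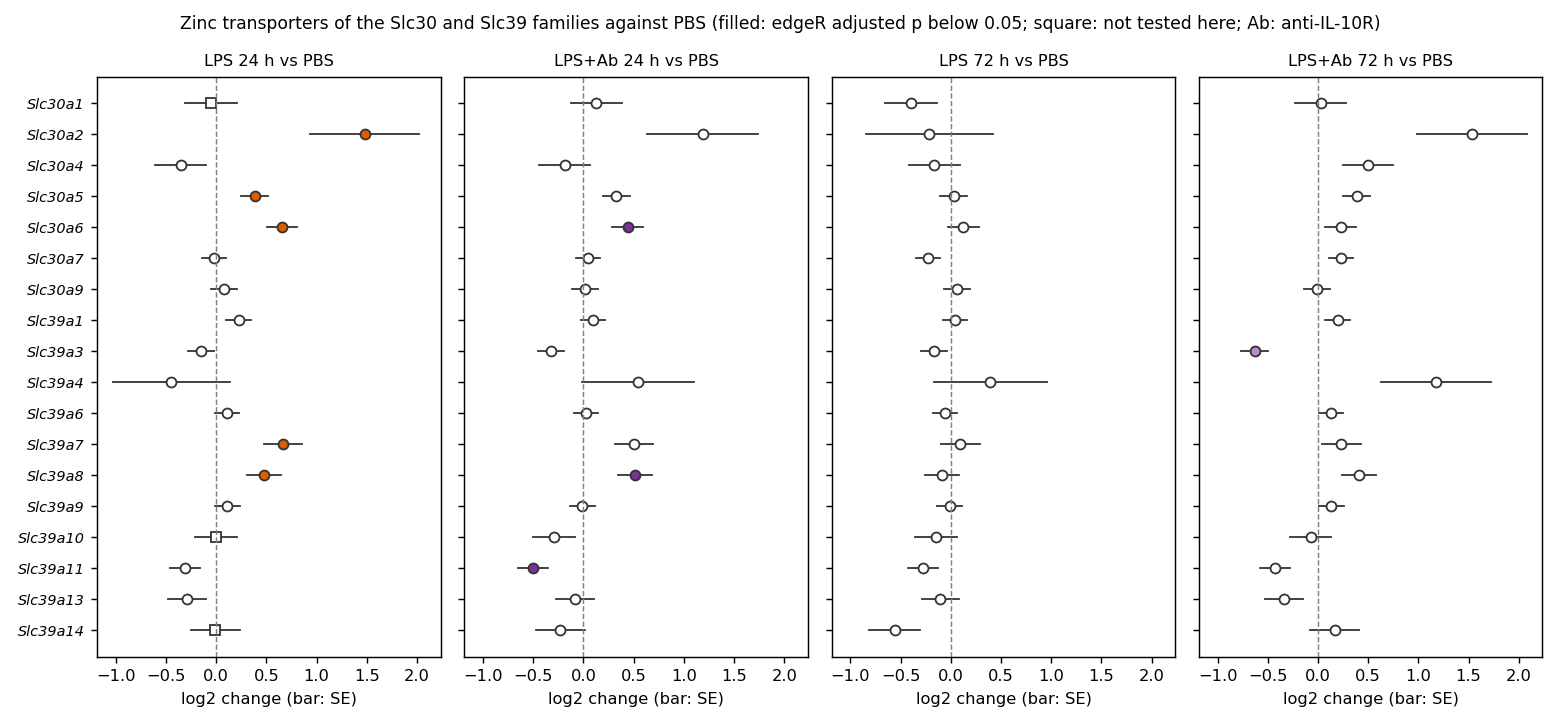
The log2 change from PBS of 18 zinc transporter genes of both families, with SE bars, in the 4 groups that received LPS; filled points passed an edgeR adjusted p of 0.05, and squares mark genes not tested in the comparison that chose them. Slc30a6, at 0.65, and Slc39a7, at 0.67, are among the filled points 24 h after LPS, and no point is filled 72 h after LPS.

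With the antibody at 24 h, Slc39a8 (0.51, SE 0.17, edgeR adjusted p = 0.0389) and Slc30a6 (0.44, SE 0.15, edgeR adjusted p = 0.0468) were higher than in PBS and Slc39a11 (-0.51, SE 0.15, edgeR adjusted p = 0.0266) was lower, 3 of 15 beside 24.2% of all genes. Upper-quartile scaling gave 0 higher and 2 lower there, and without antibody replicate 2 all 3 calls were lost (edgeR adjusted p from 0.0609 to 0.187). Over the 8 fits that left out a library, Slc30a6 lost its call in 6 (all but PBS replicate 1 and antibody replicate 1), Slc39a8 in 5 (PBS replicates 1 to 3 and antibody replicates 1 and 2) and Slc39a11 in 4 (PBS replicates 3 and 5 and antibody replicates 1 and 2). With the antibody at 72 h, only Slc39a3 passed with TMM scaling (-0.63, SE 0.13, edgeR adjusted p = 0.0107), and upper-quartile scaling gave 2 lower. Without antibody replicate 1 its adjusted p was 0.0562. Slc39a3 was also lower than after LPS alone at 72 h (-0.46, SE 0.14, edgeR adjusted p = 0.0427), where Slc30a7, which loads zinc into the secretory pathway, was higher (0.45, SE 0.13, edgeR adjusted p = 0.0345). From 24 h to 72 h of LPS, Slc39a8 (-0.56, SE 0.19) and Slc30a6 (-0.53, SE 0.17) fell (edgeR adjusted p = 0.0365 and 0.0305), and with upper-quartile scaling none was called. Each of the 2 calls was lost in 4 of the 6 fits that left out a library (edgeR adjusted p up to 0.151 and 0.102), for Slc39a8 without LPS replicate 2 or 3 of 24 h or 1 or 2 of 72 h and for Slc30a6 without LPS replicate 1 or 3 of either time. Against LPS alone at 72 h, the Slc39a3 call held only without antibody replicate 3 (edgeR adjusted p up to 0.2 in the other 5 fits), and that of Slc30a7 was lost without LPS replicate 1 or 2 or antibody replicate 3 (up to 0.160). At 72 h of LPS against PBS, 0 of the 15 were called by edgeR, beside 0.0201% of all genes. With the antibody at 72 h, 13.2% of all genes were called against PBS and 15.1% against LPS alone. From 24 h to 72 h of LPS that share was 31.1%.

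Of 9 copper-handling genes, 5 were higher and 1 lower than in PBS at 24 h of LPS, beside 37.6% of all genes called, and upper-quartile scaling gave 3 and 1. Named by size, these included the copper chaperone genes Cox17 (0.95, SE 0.26) and Atox1 (0.80, SE 0.23), the importer gene Slc31a1 (0.59, SE 0.16) and the exporter gene Atp7a (-0.99, SE 0.37), with edgeR adjusted p from 0.011 to 0.0443. Without LPS replicate 1, Slc31a1 kept its call and Cox17 (0.190), Atox1 (0.188) and Atp7a (0.213) lost theirs. Atp7a also lost its call without PBS replicate 2, 3 or 5 or LPS replicate 3, and with the replicate block Cox17 (edgeR adjusted p = 0.0585) and Atox1 (0.0700) were not called. Slc31a1 was the gene of that list called in each antibody comparison that had a call. That is 1 of 9 against PBS at 24 h and 72 h and against LPS alone at 72 h, beside 24.2%, 13.2% and 15.1% of all genes. It rose by 0.75 at 24 h (SE 0.16, edgeR adjusted p = 0.00721) and by 0.88 at 72 h against PBS (SE 0.16, edgeR adjusted p = 0.00791), and by 0.73 against LPS alone at 72 h (SE 0.19, edgeR adjusted p = 0.0167). Its levels at 72 h were 99.2, 57.4 and 65.5 CPM with the antibody and 40.9, 46.0 and 46.9 CPM without, with no overlap, and that call was lost without antibody replicate 1 (edgeR adjusted p = 0.0606) or LPS replicate 1 (0.0815).

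Other signals known to act on metallothionein genes were followed through lists of their targets. Of 9 glucocorticoid response genes, 3 were higher with the antibody at 72 h, both against PBS and against LPS alone, and none was lower, beside 13.2% and 15.1% of all genes called. Against LPS alone these were the clock gene Per1 (1.80, SE 0.53, edgeR adjusted p = 0.0340), the transcription factor gene Klf9 (1.09, SE 0.26, edgeR adjusted p = 0.0138) and Fkbp5, which encodes a co-chaperone of the glucocorticoid receptor (0.84, SE 0.15, edgeR adjusted p = 0.00272). Fkbp5 stood at 246, 214 and 183 CPM with the antibody and at 114, 113 and 132 CPM without. The median of the 9 genes was 0.84, against 0.01 over all genes. Against LPS alone the count was 1 with the compared groups alone and 0 with a replicate block. Fkbp5 kept its call against LPS in each fit that left out a library, whereas Per1 lost it without antibody replicate 1 (edgeR adjusted p = 0.186) or any LPS library (0.0723 to 0.109), and Klf9 without antibody replicate 1 (0.0583) or LPS replicate 1 (0.0744). At 24 h of LPS against PBS, 0 of the 9 were higher and 1 was lower (Dusp1), beside 37.6% of all genes, with a median of -0.10. With the antibody at 24 h against PBS, 1 was higher (Fkbp5) and 0 lower, beside 24.2%. From 24 h to 72 h of LPS, 1 was higher (Tsc22d3) and 1 lower (Fkbp5), beside 31.1%.

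Of 9 NRF2 pathway genes, 3 were higher with the antibody than without at 72 h and none lower, beside 15.1% of all genes, and the count ran from 1 with a replicate block to 6 over the alternatives. They were Slc7a11, the cystine importer gene (2.99, SE 0.72, edgeR adjusted p = 0.0128), Gclm, a glutathione synthesis gene (0.93, SE 0.18, edgeR adjusted p = 0.00444), and Txnrd1, the thioredoxin reductase gene (0.84, SE 0.12, edgeR adjusted p = 0.00122). Txnrd1 was at 247, 242 and 268 CPM with the antibody and at 134, 144 and 146 CPM without. Its antibody effect at 72 h exceeded that at 24 h by 0.95 (SE 0.16, edgeR adjusted p = 0.00841), and that of Gclm by 0.90 (SE 0.25, edgeR adjusted p = 0.0448), a call that Gclm lost in 16 of 21 alternatives. From 24 h to 72 h of LPS, 4 of the 9 fell, beside 31.1% of all genes, namely Slc7a11 (-2.25, SE 0.72), Nqo1 (-1.78, SE 0.48), Gclm (-1.09, SE 0.18) and Txnrd1 (-0.81, SE 0.12), with edgeR adjusted p from 0.000265 to 0.0268. Slc7a11 rests on 3 to 9 counts per library after LPS at 72 h, and its antibody call was lost without LPS replicate 1 (edgeR adjusted p = 0.0700). Its fall from 24 h was lost without LPS replicate 1 of either time or replicate 3 of 72 h (edgeR adjusted p up to 0.0944), and that of Nqo1 without LPS replicate 1 of 24 h (0.0517). At 24 h of LPS against PBS, Gclm (0.75, SE 0.15) and Txnrd1 (0.49, SE 0.10) were higher and Hmox1, which encodes heme oxygenase, was lower (-3.68, SE 0.99), with edgeR adjusted p from 0.00217 to 0.00952, 3 of 9 beside 37.6% of all genes.

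Of 8 genes of IL-6 family receptors and STAT3 targets, 7 were tested and none was called against PBS by edgeR in any LPS group. Of all tested genes, 37.6% and 0.0201% were called after LPS alone at 24 h and 72 h, and 24.2% and 13.2% with the antibody. With a replicate block or with limma voom, 2 were called lower for LPS at 24 h against PBS. Of all tested genes, 5007 of 14812 and 6828 of 14920 were called in these fits. Stat3 itself differed from PBS by -0.07 (SE 0.16) at 24 h of LPS and Pim1 by -0.15 (SE 0.20). The receptor subunit genes Il6st (1.57, SE 0.50, edgeR adjusted p = 0.0269) and Il6ra (1.08, SE 0.32, edgeR adjusted p = 0.0181) rose from 24 h to 72 h of LPS, between the same groups in which Mtf1 fell. These were 2 of the 7, beside 31.1% of all genes called. Both calls were lost without LPS replicate 1 or 3 of 24 h or replicate 3 of 72 h (edgeR adjusted p from 0.0706 to 0.110).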

How the data were processed

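PolyA RNA of sorted HSPCs was measured in 17 libraries. The authors deposited a table of raw read counts per gene symbol; per the submitters' processing notes, HISAT2 2.2.0, Subread, featureCounts 2.1.1, R 4.3.2, DESeq2 and the build GRCm38 were used, and counting options and strandedness are not given in the sources used here. Groups and replicate numbers came from the sample titles.

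From these counts, edgeR 4.0.16 (limma 3.58.1, R 4.3.3) was run with TMM factors, the default filterByExpr filter (minimum count 10, minimum total 15) and quasi-likelihood tests in a single fit of all 17 libraries. P-values were adjusted by Benjamini-Hochberg over 14920 genes within each of 9 comparisons, and genes were called at an adjusted p below 0.05. CPM used TMM-scaled totals, and correlations used log2 CPM with a prior count of 2. Intervals are 95% intervals of the fit. The alternatives were DESeq2 1.42.0 size factors, upper-quartile factors, DESeq2's Wald test, no count filter, limma voom with sample quality weights, a fit of the compared groups alone, a replicate block, and fits without single libraries or without both 24 h libraries numbered 1. Counts per gene list under these settings were added after seeing the data. The fit was tested on simulated counts first.

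The members and lists were chosen with earlier results of these data known. Named were all 6 genes, the 5 genes most correlated with Mt1 and 3 with each other gene. For each list, up to 4 called genes were named by size of change, or 2 by level where none was called. Some comparisons with calls in a list are not described, and their genes are not named. Lists covered metallothioneins, zinc transporters, copper handling, glucocorticoid response, NRF2 and IL-6 or STAT3 genes, and markers of HSPCs, macrophages, erythroid cells, neutrophils, B lymphoid cells, T and NK cells, and stroma and endothelium. Same-numbered libraries had a positive r of their deviations in every pair for LPS at 24 h against PBS (0.16 to 0.19). Libraries with different numbers were not correlated, so these values have no baseline and do not establish pairing. The reported fit held no block. In each other comparison the lowest r of a pair was 0.07 or below, and the libraries were treated as sharing only a number. Some pairs there had a higher r. Between the antibody groups of 72 h and 24 h, r was 0.72, -0.02 and 0.70 for numbers 1 to 3. Between antibody and LPS libraries of 72 h it was 0.27, 0.01 and 0.32. Gene models were read from the GRCm38 annotation (GENCODE vM21), and promoters from RefSeq on GRCm38.p6. Slc39a14 was not part of the motif search.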

Additional observations from a re-analysis of the deposited data

Results flagged for a closer look

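In the PBS group, the genes flagged for a library far from the other 4 were Slc30a6, Hmox1 and Nqo1. The check used the ratio of that library's gap to the group's range, which chance passes in about 1 of 20 groups. How many genes were checked is not given here. Slc30a6 was at 14.95 CPM in PBS replicate 1 and between 12.6 and 13 CPM in the others. Hmox1 was at 521.4 CPM in PBS replicate 2, which also had the highest macrophage marker sum (2627 CPM), and between 59.7 and 160 CPM in the others. Nqo1 was at 8.10 CPM in PBS replicate 1 against 3.76 to 4.21 CPM. Other genes named above also had a distant library. Cxcl12 was at 13.1 CPM in PBS replicate 5 and between 0.063 and 1.43 CPM in the others. None of the 6 zinc genes had such a library.

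The antibody's effect on Txnrd1 differed between 72 h and 24 h by 0.9504 on the log2 scale, and its effect on Gclm by 0.8958, both past the threshold in edgeR's interaction test (adjusted p = 0.00841 and 0.0448). The antibody libraries of 72 h were all above the LPS libraries of that time for both genes.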

How the results depend on the processing

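The 9 counts of called zinc genes kept within 1.5 times of the reported value in 113 of 146 alternative fits. That total includes LPS at 24 h against PBS, the comparison behind the choice. It also includes LPS at 72 h against PBS, antibody against LPS at 24 h and the antibody groups of 72 h against 24 h. There edgeR called 3, 0 and 0 of 14920 genes, so a count of 0 that stays 0 says little. Of 876 log2 changes of single genes, 845 were not counted as reversed. For LPS at 24 h against PBS, a change of sign was counted only for genes past the threshold. For LPS at 24 h against PBS (2 of 6) the count was 1 with upper-quartile factors or without both 24 h libraries numbered 1, and 1 to 2 when single libraries were left out. That comparison chose the genes, and nothing is read from its counts. For the antibody at 24 h against PBS (3) it was 0 with a replicate block, 1 for the same libraries without the block or without both libraries numbered 1, and 1 to 3 with single libraries left out. For the antibody at 72 h against PBS (1) it was 2 with DESeq2, 0 with a replicate block or the same libraries without it, and 0 to 2. For antibody against LPS at 72 h (1) it was 2 with DESeq2 or limma voom, and 1 to 2. For LPS at 72 h against 24 h (1) it was 3 with DESeq2 or voom, 2 with the compared groups alone, with a replicate block or with the same libraries unblocked, and 1 to 3. For the difference between antibody effects (0) it was 1 with DESeq2, 2 with voom, and 0 to 1. The number of all genes called moved with the setting too. For LPS at 72 h against 24 h it was 4646 as reported, 5142 with DESeq2 and 6955 with voom. The causes were not tested.

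A replicate block took Mt1 with the antibody to 2.09 at 24 h (edgeR adjusted p = 0.0598) and 1.59 at 72 h (0.113), and Mtf1 at 72 h against LPS to 0.79 (0.0603). It moved Mt2 past the threshold there (3.10, 0.0429) and from 24 h to 72 h of LPS (-3.32, 0.00488).

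Some values changed sign. For LPS at 24 h against PBS with libraries left out, Slc30a1 ran from -0.102 to 0.0512 and Slc39a14 from -0.184 to 0.182. Slc39a10 ran from -0.211 to 0.240 in those fits. Against PBS with the antibody, Slc30a1 at 72 h was -0.0731 with upper-quartile factors, -0.0012 with the compared groups alone, -0.0013 with a replicate block and -0.0847 to 0.135 with libraries left out, and -0.42 to 0.365 at 24 h. There Slc39a14 ran from -0.0351 to 0.319 and Slc39a10 from -0.227 to 0.099 at 72 h. For antibody against LPS at 24 h, Mtf1 was -0.0529 with voom, -0.0437 without both libraries numbered 1 and -0.0492 to 0.174 with libraries left out, Mt2 ran from -0.0242 to 1.77 and Slc30a1 from -0.372 to 0.413. At 72 h, Slc39a10 was -0.0086 with upper-quartile factors and -0.0805 to 0.263. From 24 h to 72 h of LPS, Slc39a10 ran from -0.354 to 0.0647. Between antibody groups, without both libraries numbered 1, Mt2 was 0.175 and Mtf1 0.0085, and Slc30a1 was 0.008 with a replicate block. With libraries left out these ran from -2.69 to 0.175, -0.132 to 0.0228 and -0.338 to 0.447. The difference between antibody effects on Mt1 was -0.0069 with voom.

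Upper-quartile scaling moved the median of all genes from -0.03 to -0.16 for LPS at 24 h and from 0.00 to -0.11 for the antibody at 24 h against PBS, and from 0.02 to 0.13 for LPS at 72 h against 24 h. The share of called genes that were higher was then 36.8%, 32.5% and 59.2%. Depth limits Mt2, at 10 counts in its lowest library.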
